A study of Mus musculus with 4 samples.

Results

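The cells described here are subepithelial B fibroblasts of the mouse small intestine in which Adamts18 was not detected. They were selected on their own expression values, by a rule on 17 genes. A cell was kept when it had at least 1 UMI (unique molecular identifier, which counts 1 captured RNA molecule) of Sox6 and of Pdgfra, none of Adamts18, Fbln1 or Mgp, at least 3 of the 6 B markers Slitrk6, Col6a4, Bdkrb2, Spon2, Ccdc3 and Ncam1, and more of these than of the 6 A markers Wif1, Pla1a, Col23a1, Trp53i11, Il34 and Mgarp. The rule found 295 members among 16891 droplet (10X) cells, 56 in library 1 and 239 in library 2. The libraries were made from stromal cells of wild-type mice aged 8 weeks (per the labels), which were sorted as positive for podoplanin and negative for the leukocyte marker CD45, the epithelial marker EpCAM and the endothelial marker CD31. No treatment or allele separates the samples, and the number of mice behind a library is not given in the sources used here, so every p-value below measures only the spread between 2 libraries, which may be technical. The comparisons were made within each library, against all other 10X cells, against the cells on the Wif1 side and against the cells that met the same rule but had Adamts18.

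Subepithelial fibroblasts form a thin sheath beneath the intestinal epithelium and carry high levels of PDGFRA, the receptor for platelet-derived growth factor. Those of the villus are a source of BMP ligands, secreted signals that favour differentiation of the epithelium, whereas fibroblasts around the crypts make BMP antagonists such as Grem1 that favour stem cells. The cells at the villus tip are known as telocytes, and Adamts18, a secreted protease, marks them. The cells described here share the B markers of that compartment and lack a UMI of Adamts18 itself.

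Members made up 2.20% of the cells of library 1 (95% Clopper-Pearson interval 1.67 to 2.85%) and 1.67% of those of library 2 (1.46 to 1.89%). These intervals cover counting error only. The order of the libraries holds for this rule and not for every form of it: it turned to 0.644% and 0.976% when the rule was applied to cells thinned to 2000 UMIs, and to 2.47% and 5.65% without the limits on Fbln1 and Mgp. The Wif1 side held 82 and 263 cells, which had Sox6 and Pdgfra, none of Adamts18, Fbln1 or Mgp, at least 3 of the A markers and more A than B markers, and the Adamts18-positive group held 13 and 51 cells. The median total per member was 10013 UMIs in library 1 (2080 to 16450) and 7350 in library 2 (2281 to 13642), against 8757 and 6874 over all cells. The Wif1 side was deeper, with medians of 12413 and 8839 UMIs, and the Adamts18-positive cells had 11950 and 7640. Of the members' UMIs, 24.4% and 22.9% fell on the genes that the deposited table lists, with a median of 577.5 and 476 genes detected per cell. The libraries shared 7 cell barcodes, 0 of them among the members.

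The limits on Fbln1 and Mgp, 2 matrix genes, set the size of the group in library 2. Mgp averaged 26.3 and 28.9 UMIs per 10,000 over all cells of libraries 1 and 2, and Fbln1 averaged 21.5 and 21.0. Cells that met every other part of the rule but held a UMI of either gene numbered 7 in library 1 and 571 in library 2, so that without these limits the group would hold 63 and 810 cells. Of the 571 cells, 188 held exactly 1 UMI of the pair together. In the 41 cells of library 2 with Ptprc and without Pdgfra, which are labelled by a leukocyte gene (median 4234 UMIs), Mgp was found in 29.3% and Fbln1 in 24.4%. Whether the UMIs in the 571 cells are their own RNA or free RNA was not tested. Those cells averaged 11.4 UMIs per 10,000 of Ednrb and 6.44 of C3, against 15.97 and 0.78 in the members of library 2.

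The values that chose the members are a description and carry no test. Slitrk6 was detected in 89.3% and 92.1% of the members of libraries 1 and 2, Ncam1 in 96.4% and 90.8%, Spon2 in 85.7% and 79.1% and Ccdc3 in 87.5% and 72.0%. Bdkrb2, the bradykinin B2 receptor, was detected in 55.4% and 52.7%, and Col6a4, a collagen VI chain, in only 26.8% and 30.1%. Spon2 was not particular to the members, with 3.50 and 3.82 UMIs per 10,000 against 8.30 and 8.64 in other 10X cells, and Ncam1 stood at 5.31 and 4.65 against 3.43 and 3.64. Wif1, a secreted Wnt inhibitor, was found in 1.79% and 1.67% of members, whereas Il34 remained in 39.3% and 20.1%. In library 1, 11, 18, 20 and 7 members held 3, 4, 5 and 6 of the B markers, and in library 2 the numbers were 74, 81, 54 and 30. Just outside the threshold, 6 and 40 cells held 2 markers, with medians of 3611.5 and 6267 UMIs. Their Ednrb level of 10.6 and 10.4 UMIs per 10,000 stood beside 15.8 and 12.1 in the members with 3 markers and 26.2 and 25.5 in those with 6. Postn, which encodes the matrix protein periostin, stood at 1.04 and 0.386 with 3 markers and at 7.19 and 5.37 with 6. Members with 6 markers were also deeper than those with 3, with medians of 10677 and 7795.5 UMIs against 8067 and 6741.5. The rise was not even, since the medians were 10083 and 7470 with 4 markers and 11046 and 7334.5 with 5. The part of depth in these levels was not tested.

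Of the 6 markers of the subepithelial list, Sox6 and Pdgfra are rule genes and are left aside here. Of the other 4, Bmp5 stood at 10.8 UMIs per 10,000 in members of both libraries against 1.26 and 2.33 in other cells, and Tnc at 17.4 and 17.1 against 3.99 and 5.89. Bmp7 stood at 3.37 and 2.72 against 0.45 and 0.686, and F3, the tissue factor gene, at 1.65 and 1.44 against 0.598 and 0.642. The crypt fibroblast list summed to 1.88 and 4.04 in members and to 73.5 and 65.4 in other cells. The villus fibroblast list summed to 116 and 124 against 63.2 and 82.1, and most of that came from Adamdec1. Lrat and Lpl were higher in members as well, and Hmcn1 was about level in library 1 and higher in library 2. Igfbp3 went the other way, at 1.40 and 2.30 against 2.40 and 3.46. So did Fgfr2, at 0.239 and 0.501 against 1.26 and 1.70, and Frzb, at 0 and 0.0116 against 0.353 and 0.395. Smooth muscle, glial, immune, endothelial and epithelial lists each summed to between 0.0151 and 0.334 in members and to between 0.0201 and 0.743 in other cells, so that low sums do not set the members apart from the rest of this sort, and Epcam, Ptprc, Sox10 and Myocd were at 0 in both libraries. The pericyte list was not near 0, with all 5 markers detected. It summed to 8.35 and 6.83 in members, below the 14.6 and 17.7 of other cells. That lower sum came from Rgs5, at 4.58 and 3.16 against 13.6 and 16.4. Cspg4 was higher in members, at 2.04 and 2.30 against 0.591 and 0.825, as was Kcnj8, at 1.69 and 1.26 against 0.319 and 0.411. Mcam and Notch3 were near 0 in both groups. The list for interstitial cells of Cajal summed to 2.30 and 2.19 in members, above the 0.802 and 1.20 of other cells, and nearly all of that was Etv1, at 2.17 and 2.10, while Kit stood at 0 and 0.0188. The part of other cell types in the results below was not tested.

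Compared with all other 10X cells, the members carried high levels of the endothelin receptor Ednrb, of contractile genes and of Bmp5. Under the limits on Fbln1 and Mgp they held almost none of the complement gene C3. Ednrb, the type B receptor for the vessel-constricting endothelins (chr14:103814625-103844402, minus strand, GRCm38), stood at 16.7 and 15.97 UMIs per 10,000 in members of libraries 1 and 2 and at 0.529 and 1.58 in other cells. The library means did not overlap, and those of the members were 31.5-fold and 10.1-fold higher. The other cells take in the Wif1 side, the Adamts18-positive cells and the cells left out only by the limits on Fbln1 and Mgp. The last of these numbered 7 in library 1 and 571 in library 2, with Ednrb at 4.97 and 11.4. Their part in the folds was not tested. Single cells did overlap, since Ednrb was detected in 96.4% and 97.9% of members and in 8.95% and 19.4% of other cells (87.5% and 87.0% against 4.61% and 11.7% with cells thinned to 2000 UMIs), and in 1 of the 41 leukocyte-marked cells. On the mean natural log scale of the deposited values the difference was 2.37 ± 0.10 (SE), with an adjusted p of 5.6e-98 by limma. Rbp4, which carries retinol, showed a like pattern, at 7.33 and 6.11 against 0.324 and 0.636. Emid1, an extracellular matrix protein, stood at 5.67 and 4.75 against 0.327 and 0.595, and Wnt4, a secreted Wnt ligand, at 5.0 and 6.33 against 0.523 and 0.936.

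Over all 1679 genes tested outside the rule, 508 (30.3%) were higher in members and 456 (27.2%) lower at an adjusted p under 0.05. With so high a background a single call says little, and the sizes of the differences carry more. Because expression in these same cells selected the members, that selection is part of every p-value. With 2 libraries each gene had 1 residual degree of freedom, and limma's estimated prior degrees of freedom were infinite in all 3 comparisons, so the spread came wholly from genes of like level and a gene's own disagreement between libraries had no weight in its p-value. A small p such as that of Ednrb therefore rests on the size of the difference and not on that gene's agreement between libraries. In all, 4 of the 964 calls had opposite signs in the 2 libraries (Anapc7, Hrh1 and Myh14 among them, named for that after their values were seen).

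**Figure D1:**
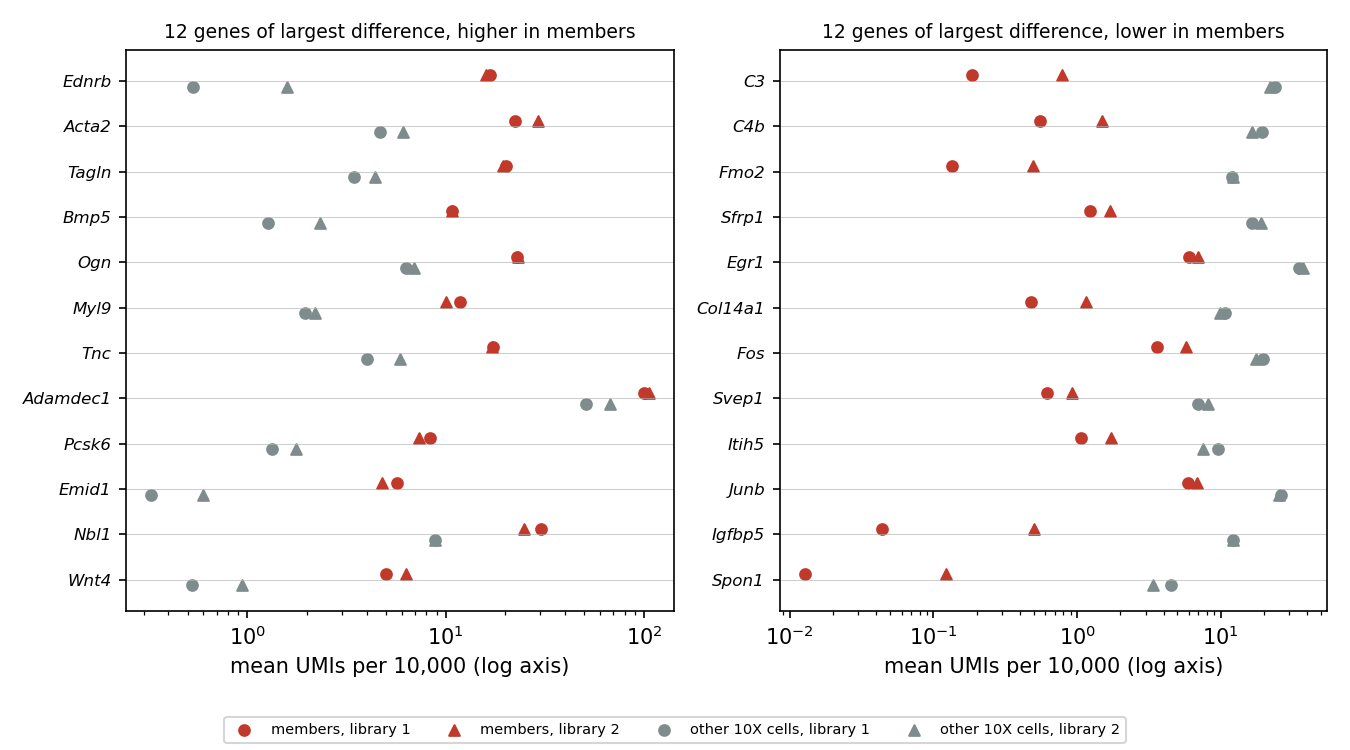
Mean UMIs per 10,000 (log axis) of the 12 genes with the largest difference in each direction between members (red) and all other 10X cells (grey); circles are library 1 and triangles library 2. In all 24 genes both members' values lie on one side of both other values, with Ednrb at 16.7 and 15.97 against 0.529 and 1.58.

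Of the 12 genes with the largest lower difference, 4 (C3, Fmo2, Svep1 and Col14a1) are in the crypt fibroblast list and 3 (Egr1, Fos and Junb) in the stress and immediate-early list. C3, the central complement component, stood at 0.187 and 0.78 UMIs per 10,000 in members and at 24.1 and 22.1 in other cells. The difference was -2.11 ± 0.10. The 571 cells of library 2 that were left out only by the limits on Fbln1 and Mgp held C3 at 6.44. The part of those limits in the low levels of this paragraph was not tested. C4b, another complement component, stood at 0.55 and 1.496 against 19.3 and 16.4, and the monooxygenase gene Fmo2 at 0.135 and 0.496 against 12 and 12.3. Sfrp1, a secreted Wnt antagonist, stood at 1.23 and 1.71 against 16.6 and 19.2. In Igfbp5, Spon1 and Grem1 the members of library 2 held more than those of library 1. Igfbp5, an IGF binding protein, stood at 0.0436 and 0.499 against 12.2 and 12.1, Spon1 at 0.0127 and 0.122 against 4.54 and 3.38, and Grem1 at 0.0198 and 0.194 against 7.56 and 4.53. Whether these low levels are the members' own RNA was not tested. Col14a1, a fibril-associated collagen, fell by 1.54 ± 0.09, Svep1 by 1.37 ± 0.09 and Itih5 by 1.36 ± 0.10.

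Most contractile genes tested were higher in members. Of 17 genes of that list 14 were tested, 13 were higher and 0 lower, beside 30.3% higher and 27.2% lower of all genes tested. The median difference was 1.19 against 0.02 over all genes tested. Acta2, smooth muscle actin (chromosome 19), stood at 22.3 and 29.3 UMIs per 10,000 in members and at 4.67 and 6.09 in other cells, 4.78-fold and 4.81-fold higher. Tagln, an actin cross-linking protein, stood at 20.1 and 19.5 against 3.45 and 4.41. Myl9, the regulatory light chain of myosin, stood at 11.8 and 10.1 against 1.96 and 2.18, and Myh11, a smooth muscle myosin heavy chain, at 4.99 and 4.73 against 0.786 and 1.12. The kinase gene Mylk, which phosphorylates that light chain, rose by 1.31 ± 0.11. Des, the intermediate filament protein desmin, was the tested gene that did not pass, at 0.245 and 0.521 against 0.528 and 0.515, and Cnn1, Actg2 and Lmod1 were detected in too few cells to be tested. In members Actg2, the enteric smooth muscle actin, stood at 0.0494 and 0.166 UMIs per 10,000.

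Promoter windows of 3 of these genes are shown because most tested genes of the list were higher in members. Each holds the 250 bases before the RefSeq start and the 50 bases from it (300 bases, GRCm38.p6, 5′ to 3′ on the strand of the gene). Capitals mark the CArG box, the binding motif of serum response factor: CC, 6 bases that are all A or T, then GG, which reads as the same motif on both strands. In Acta2 the capitals mark 2 near matches with 1 of the middle bases not A or T. The windows are chr2:156775214-156775513 (plus strand) for Myl9, chr10:79988350-79988649 (plus strand) for Cnn2 and chr19:34255324-34255623 (minus strand) for Acta2.
Myl9: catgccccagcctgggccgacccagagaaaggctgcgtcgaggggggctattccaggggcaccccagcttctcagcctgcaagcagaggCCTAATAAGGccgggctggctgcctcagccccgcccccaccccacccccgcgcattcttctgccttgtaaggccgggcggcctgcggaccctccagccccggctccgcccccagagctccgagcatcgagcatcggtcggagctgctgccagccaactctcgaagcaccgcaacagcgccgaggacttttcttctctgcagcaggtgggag
Cnn2: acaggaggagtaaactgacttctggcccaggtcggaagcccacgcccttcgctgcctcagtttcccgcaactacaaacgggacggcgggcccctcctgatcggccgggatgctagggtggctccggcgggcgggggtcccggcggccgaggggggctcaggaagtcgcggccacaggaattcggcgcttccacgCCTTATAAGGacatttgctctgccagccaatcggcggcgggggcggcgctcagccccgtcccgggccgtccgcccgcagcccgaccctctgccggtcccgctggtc
Acta2: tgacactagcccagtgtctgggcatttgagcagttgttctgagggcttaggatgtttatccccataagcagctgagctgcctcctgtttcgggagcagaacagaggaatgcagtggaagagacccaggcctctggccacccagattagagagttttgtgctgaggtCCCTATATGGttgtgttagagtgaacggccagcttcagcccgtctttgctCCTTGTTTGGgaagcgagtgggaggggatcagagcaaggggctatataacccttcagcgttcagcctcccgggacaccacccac
The match began 161 bases before the start in Myl9 and 56 before it in Cnn2, and the near matches in Acta2 began 84 and 34 before it. Among the 14 contractile genes with a window, 2 (14.3%) held the strict motif, against 1.81% of all 27025 genes with a window, and 4 (28.6%) held it with 1 base allowed to differ, against 11.3%. Such a match is a description of the letters. Tagln, Myh11 and Actg2 had no window, so these 14 genes are not the same 14 that were tested. Only the contractile list was scanned, and no other list, such as the stress genes that were lower in members, has a share to set beside it.

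The counts of the signalling, matrix and other lists below stand beside the 57.4% of all tested genes that were called in either direction, so that a list with calls in both directions says little by its count alone. Of 5 BMP ligand genes tested 4 were higher and 1 lower. Bmp5 stood at 10.8 UMIs per 10,000 in both libraries against 1.26 and 2.33 in other cells, and Bmp7 at 3.37 and 2.72 against 0.45 and 0.686. Bmp2 differed little in level, at 1.81 and 1.74 against 1.03 and 1.498 (0.21 ± 0.07, a call lost in 4 of 10 other settings). The BMP target genes Id1, Id2 and Id3, inhibitors of helix-loop-helix factors, all rose, Id1 to 2.78 and 2.70 from 0.318 and 0.54, and Id4 did not pass (0.00 on the log scale). Of 7 antagonists tested 1 was higher, Nbl1, at 30.2 and 24.9 against 8.88 and 8.81, and 4 were lower, Grem1 among them. All 3 Wnt ligands tested were higher. Wnt5a, which signals without beta-catenin, stood at 2.11 and 2.68 against 0.609 and 0.731. Of 10 Wnt receptors and modulators 2 were higher and 7 lower, among them Rspo3, which amplifies Wnt signals at the crypt, at 0.133 and 0.106 against 0.602 and 0.61.

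Ptch1, the hedgehog receptor and itself a target of the pathway, stood at 10.4 and 9.50 UMIs per 10,000 in members and at 2.68 and 2.83 in other cells. Foxl1, a hedgehog target and a marker of telocytes, stood at 0.685 and 0.811 against 0.0552 and 0.109, and was detected in 46.4% and 42.3% of members. In the leukocyte-marked cells of library 2 it was in 0 of 41, which allows up to 7.32% of cells with a UMI. The list as a whole was split, with 3 genes higher and 3 lower of 6 tested. Vegfa, the main growth factor of blood vessels, stood at 2.09 and 2.54 UMIs per 10,000 in members against 0.707 and 0.894. It was detected in 80.4% and 75.7% of members, and in 30.4% and 40.2% once each cell was thinned to 2000 UMIs, against 12.4% and 14.4% of thinned other cells. In the vessel list 8 of 15 tested genes were higher and 4 lower. Procr, the endothelial protein C receptor, stood at 2.21 and 2.11 against 0.274 and 0.31, and Thbd, thrombomodulin, at 10.6 and 8.59 against 2.56 and 3.39. Both limit blood clotting on cell surfaces. Agt, the angiotensin precursor, stood at 2.38 and 2.0 against 0.444 and 0.408, and 7 of 11 endothelin, kinin and angiotensin genes were higher and 2 lower. Among growth factors 7 of 14 were higher and 5 lower, with Nrg1, a ligand of ERBB receptors, at 0.999 and 0.949 against 0.0752 and 0.126, and Ntf3, a neurotrophin, at 1.01 and 1.03 against 0.182 and 0.267.

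Of 23 genes of the basement membrane list 12 passed the filter on low values, and of these 9 were higher and 0 lower. A gene could pass the filter through the members alone, and such a gene, as Lama5 in 33.9% and 18.4% of members and 1.57% and 2.52% of other cells, had little room to be lower, so this count is not a result about the list. The same holds for the counts of the other lists. Lamb1, a laminin beta chain, stood at 14.0 and 13.1 UMIs per 10,000 against 5.31 and 5.73. Lama5, the laminin alpha 5 chain, stood at 0.804 and 0.363 against 0.0295 and 0.0547, and Smoc1, a basement membrane protein that binds calcium, at 1.18 and 0.523 against 0.031 and 0.0606. Both Lama5 and Smoc1 were higher in members of library 1 than in those of library 2. The matricellular and elastic list was split, 11 genes higher and 13 lower of 24. Tnc, tenascin C, stood at 17.4 and 17.1 against 3.99 and 5.89, Ogn, the small proteoglycan osteoglycin, at 22.8 and 23.1 against 6.29 and 6.93, and Fn1, fibronectin, at 32.0 and 29.4 against 10.9 and 14.6. Elastin (Eln) went the other way, at 1.89 and 1.56 against 8.02 and 6.05, and so did the microfibril gene Mfap5, at 0.0181 and 0.108 against 2.44 and 1.72. Collagens were split as well, 7 higher and 6 lower of 14, with Col12a1 at 6.49 and 5.77 against 1.501 and 2.26. Of 19 protease genes 8 were higher and 7 lower. Adamdec1, a secreted metalloprotease of villus stroma, stood at 100.1 and 106 against 51.2 and 67.3. Pcsk6, a proprotein convertase, stood at 8.30 and 7.38 against 1.33 and 1.76.

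In the retinoid list 6 of 8 tested genes were higher and 1 lower. Aldh1a1, which makes retinoic acid, stood at 10.1 and 8.40 UMIs per 10,000 against 2.80 and 2.84. Of 20 transcription factors 13 were higher and 7 lower. Tcf4 stood at 21.4 and 18.6 against 5.96 and 6.75, and Tox at 1.34 and 1.22 against 0.116 and 0.21, while Klf4 stood at 0.384 and 0.462 against 5.81 and 5.19. Of 8 guidance genes 5 were higher and 3 lower, with Cdh13, a cadherin without a cytoplasmic tail, at 1.83 and 0.91 against 0.121 and 0.122. Of 9 TGF-beta and activin genes 5 were higher and 1 lower. All 19 stress and immediate-early genes tested were lower in members, with a median difference of -0.81. Egr1 stood at 5.97 and 6.91 UMIs per 10,000 against 35.3 and 37.2, Fos at 3.61 and 5.72 against 19.8 and 17.5, and Junb at 5.92 and 6.89 against 26.4 and 25.4. These genes respond within minutes to tissue dissociation, and the part of handling in their level was not tested.

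**Figure D2:**
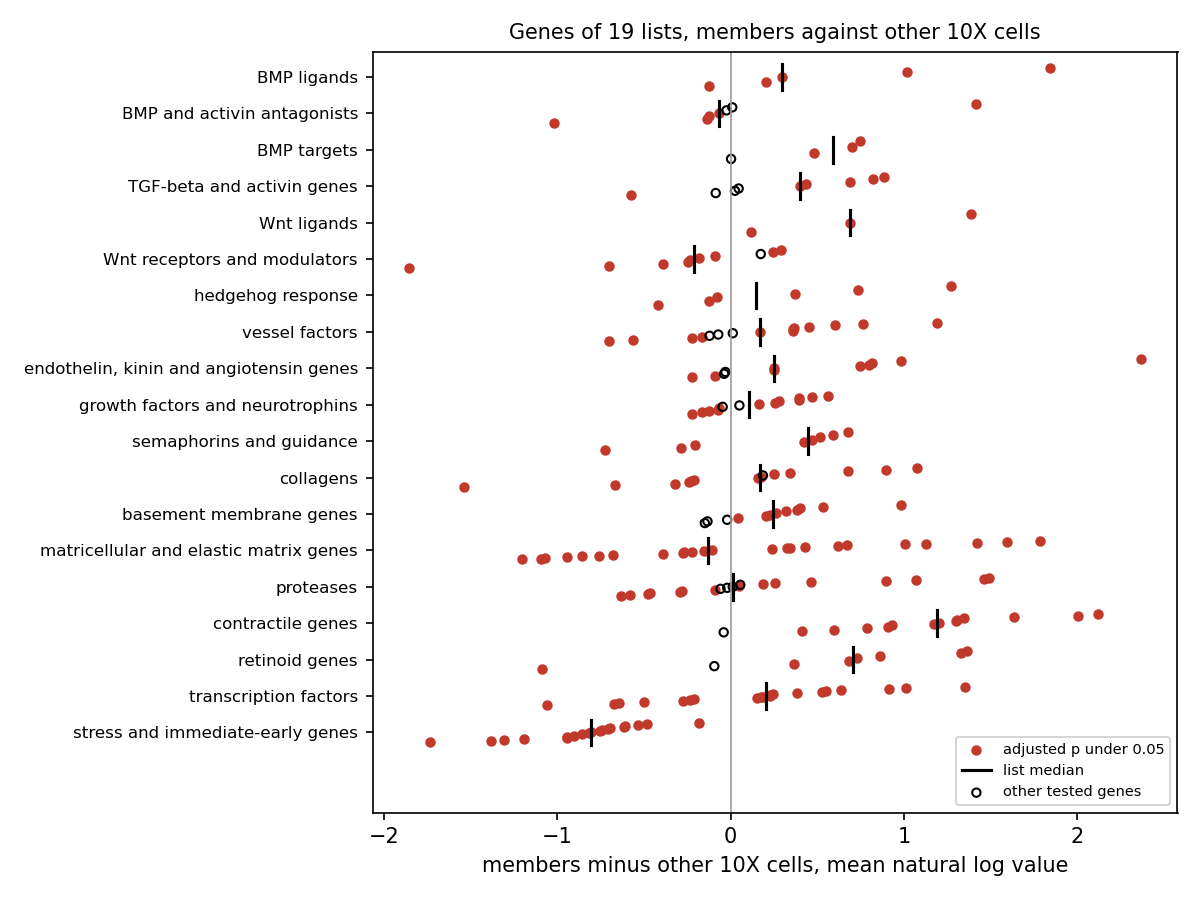
Difference in mean natural log value between members and all other 10X cells for each tested gene of the 19 lists; filled points passed the adjusted p of 0.05, open points did not, and the bar is the list's median. Contractile genes lie to the right (median 1.19) and all 19 stress and immediate-early genes to the left (median -0.81).

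The cells on the Wif1 side are the other side of the subepithelial compartment by the rule, and the comparison asks what besides the markers separates the B from the A side. Of 1592 genes tested 216 (13.6%) were higher in members and 314 (19.7%) lower. In either direction 33.3% were called, and the list counts of this comparison stand beside that share. Ednrb led again, at 16.7 and 15.97 UMIs per 10,000 in members and 2.16 and 3.32 on the Wif1 side (1.58 ± 0.08), while its partner receptor Ednra went the other way, at 2.44 and 3.096 against 5.13 and 6.47 (-0.66 ± 0.08, adjusted p = 7.1e-17). Adamdec1 stood at 100.1 and 106 against 25.7 and 27.0, 3.90-fold and 3.94-fold higher. Aspn, the small proteoglycan asporin, stood at 9.20 and 8.26 against 2.77 and 1.74, and Plpp3, which breaks down lysophosphatidic acid, at 5.93 and 8.13 against 1.14 and 1.63. Agt stood at 2.38 and 2.0 against 0.109 and 0.214. Postn, Lama5 and Sparcl1 were at or near 0 on the Wif1 side. Postn stood at 2.57 and 1.52 against 0.00898 and 0.0645, Lama5 at 0.804 and 0.363 against 0 and 0.00834, and Sparcl1, a matricellular protein related to SPARC, at 1.38 and 1.12 against 0 and 0.069. Lama5 was found in 0 of 82 cells of the Wif1 side in library 1, which allows up to 3.66% of cells with a UMI and sets no limit on cells that express the gene, and in 2 of 263 in library 2. Of 8 retinoid genes 5 were higher and 1 lower. Rbp4 stood at 7.33 and 6.11 against 1.39 and 1.97, and the retinoic acid enzyme Aldh1a3 at 2.17 and 5.15 against 0.292 and 1.12. Lrat, which stores retinol as ester, stood at 7.80 and 5.24 against 2.63 and 1.91. In level Aldh1a1 went the other way, at 10.1 and 8.40 against 13.9 and 11.9. Wnt4 was 3.16-fold and 2.55-fold higher, Nrg1 8.83-fold and 7.22-fold and Ptch1 2.60-fold and 2.049-fold.

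Lower in members than on the Wif1 side were Smoc2, a basement membrane protein of the SPARC family, at 1.07 and 0.622 UMIs per 10,000 against 6.09 and 4.17, Itih5 at 1.06 and 1.72 against 6.15 and 5.16, and the Wnt receptor gene Fzd2 at 2.12 and 2.54 against 6.80 and 7.37. Smoc1 and Smoc2 thus differed in opposite directions, since Smoc1 stood at 1.18 and 0.523 against 0.122 and 0.0988. Igfbp5 stood at 0.0436 and 0.499 against 20.03 and 7.64, with the Wif1 side itself uneven between the libraries. Igf1, an insulin-like growth factor, stood at 1.43 and 1.46 against 3.59 and 4.63, and Col6a5, another collagen VI chain, at 1.80 and 3.07 against 5.61 and 6.74. Chrd, the BMP antagonist chordin, stood at 0.464 and 0.428 against 2.17 and 1.69, Bmp3 at 0.688 and 0.786 against 1.95 and 2.26, and Inhbb, an activin subunit, at 1.36 and 1.03 against 2.41 and 2.89. Abcc9, a subunit of ATP-sensitive potassium channels, stood at 2.03 and 2.30 against 4.92 and 5.17. Bmp5 did not pass (0.17 ± 0.08, adjusted p = 0.099), at 10.8 in both libraries against 7.81 and 10.6. Beside the 33.3% of all tested genes called in either direction, 2 of 14 contractile genes were higher, Pdlim1 and Pdlim3, and 5 lower. Acta2 was called lower (-0.19 ± 0.08) although its libraries disagreed, with an adjusted p of 0.037 that passed in only 2 of 10 other settings, and with 22.3 against 33.5 in library 1 and 29.3 against 26.8 in library 2. Of 19 stress genes 17 were lower in members, with Fos at 3.61 and 5.72 against 15.0 and 12.5. With each cell thinned to 2000 UMIs 76 genes were higher and 100 lower of the 937 then tested, and without the library block 104 and 150 of 1592; the part of depth was not tested.

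**Figure D3:**
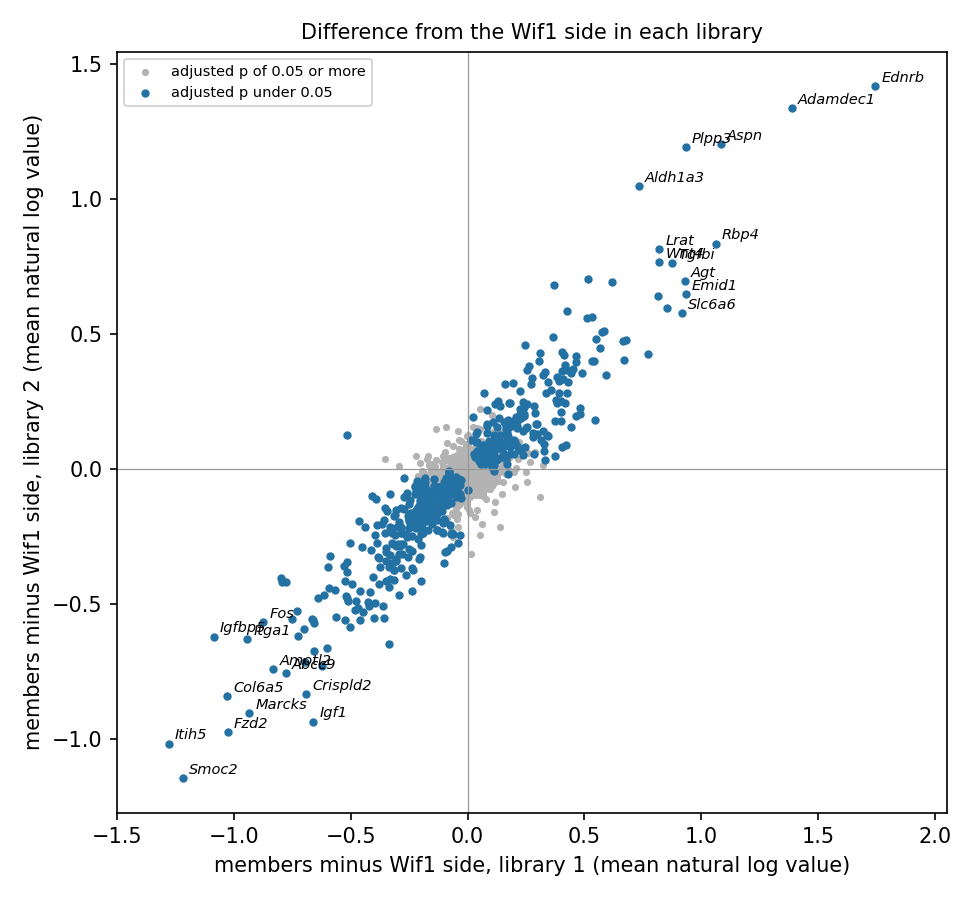
Difference in mean natural log value between members and the Wif1 side in library 1 (horizontal axis) and library 2 (vertical axis) for each of 1592 tested genes; blue points passed the adjusted p of 0.05, and the 12 genes of largest difference in each direction are named. Ednrb and Adamdec1 lie at the upper right and Smoc2 and Itih5 at the lower left, with like values in both libraries.

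The last comparison set the members beside the 64 cells that met the same rule but had a UMI of Adamts18. Detection of a gene depends on depth, and some members may carry Adamts18 RNA that was not captured. Of 1560 genes tested 30 (1.92%) were higher in members and 35 (2.24%) lower. Sparcl1 stood at 1.38 and 1.12 UMIs per 10,000 in members and at 4.59 and 5.54 in Adamts18-positive cells (-0.94 ± 0.12, adjusted p = 1.1e-11). Ednrb stood at 16.7 and 15.97 against 27.7 and 35.9, and Wnt5a at 2.11 and 2.68 against 4.62 and 6.00. For Fst, the activin antagonist follistatin, the members stood at 0.0609 and 0.474 against 0.534 and 6.51, and for Npnt, the basement membrane protein nephronectin, at 0.0552 and 0.29 against 0.71 and 3.93. Postn stood at 2.57 and 1.52 against 3.13 and 9.03, and Bmp2 at 1.81 and 1.74 against 2.82 and 5.76. For Fst, Npnt, Postn and Bmp2 the gap was wider in library 2 than in library 1, where the positive group was only 13 cells. Col12a1 stood at 6.49 and 5.77 against 11.5 and 11.9, and both Col4a5 and Col4a6, neighbouring chains of collagen IV, were lower in members, Col4a5 at 2.08 and 2.13 against 3.31 and 3.89. The call of Col4a5 was kept in 6 of 10 other settings and that of Col4a6 (adjusted p = 0.048) in 4 of 10.

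Higher in members than in Adamts18-positive cells were Meg3, a long non-coding RNA, at 6.78 and 4.56 UMIs per 10,000 against 1.55 and 1.74 (0.87 ± 0.12, adjusted p = 1.9e-10), and Apoe, the lipid carrier apolipoprotein E, at 3.73 and 3.84 against 0.91 and 1.10. Rbp4 stood at 7.33 and 6.11 against 2.83 and 3.20, which put it higher in members than in either neighbour group. Col18a1 stood at 3.49 and 2.64 against 1.04 and 1.22, Col6a5 at 1.80 and 3.07 against 0.36 and 1.11, and Bst2, an interferon-induced membrane protein, at 4.01 and 5.86 against 2.12 and 2.04. Igf1 and Smoc2, both lower in members than on the Wif1 side, were higher than in Adamts18-positive cells, Igf1 at 1.43 and 1.46 against 0.279 and 0.635 and Smoc2 at 1.07 and 0.622 against 0.21 and 0.168. In the order of levels Ednrb rose from the Wif1 side through the members to the Adamts18-positive cells, and Col6a5, Igf1 and Smoc2 fell along it. The summed B markers, which help set these groups, rose in that order, from 1.53 and 2.29 through 18.6 and 18.0 to 21.1 and 30.9. The part of the rule in the order of these genes was not tested. Of all genes tested 4.17% were called in either direction. Against that share, 5 of 13 collagens (2 higher and 3 lower), 4 of 12 basement membrane genes (2 and 2), 5 of 23 matricellular and elastic genes (2 and 3) and 3 of 10 endothelin, kinin and angiotensin genes (all lower) were called. By limma's test 0 of 14 contractile genes, 0 of 19 stress genes, 0 of 17 transcription factors, 0 of 4 BMP targets, 0 of 5 hedgehog genes and 0 of 7 Wnt receptors and modulators passed, and against a share of 4.17% a count of 0 is not a result about a list. Over all genes 223 had an unadjusted p under 0.05. Without the library block 2 of the 65 calls were left, Sparcl1 and Meg3. With cells thinned to 2000 UMIs 11 of the 964 genes then tested passed, 10 of them among the 65.

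**Figure D4:**
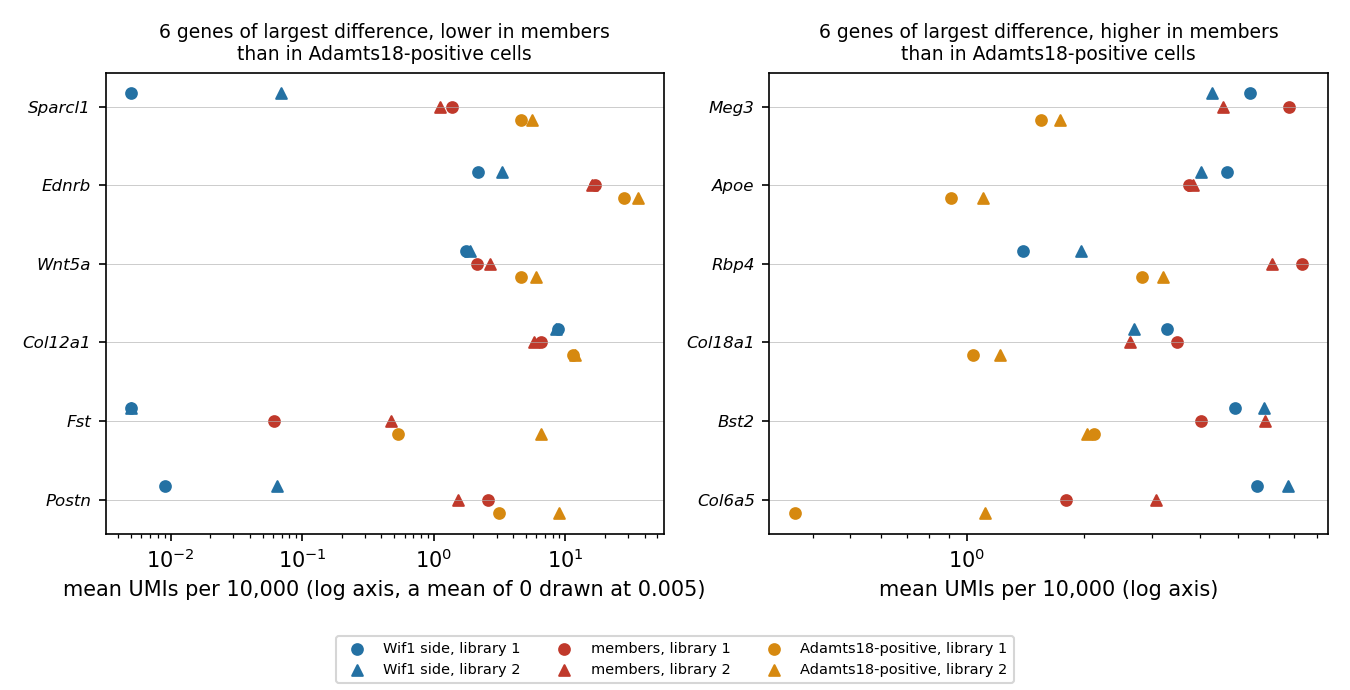
Mean UMIs per 10,000 (log axis) on the Wif1 side (blue), in members (red) and in Adamts18-positive cells (orange) for the 6 genes of largest difference in each direction between members and Adamts18-positive cells; circles are library 1, triangles library 2, and a mean of 0 is drawn at 0.005. Ednrb rises over the 3 groups, while Rbp4 is highest in members.

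Members also varied among themselves. For each of 556 genes at 0.5 UMIs per 10,000 or more in both libraries, the variance over members was set against that of counting alone at each cell's depth, and the median ratio was 1.64 in library 1 and 1.48 in library 2. Genes were ranked by the lower of their ratios in the 2 libraries. At the same relative spread this ratio is larger for a gene of higher level, so the ranking is not one of relative spread. The nuclear RNA Malat1 led with 77.7 and 45.4, followed by Adamdec1 with 32.7 and 28.1, Fos with 28.9 and 24.0 and Egr1 with 21.1 and 26.5. In library 2 the level of Adamdec1 ran from 32.4 UMIs per 10,000 at the 10th percentile of members to 193 at the 90th, with a median of 99.7. Fos was at a median of 0 in library 1 and 1.11 in library 2, with 90th percentiles of 10.97 and 18.1. Acta2 ranked 8 and ran from 2.66 and 4.02 at the 10th percentile to 49.0 and 57.0 at the 90th, and Rbp4 ranked 12, with medians of 3.54 and 3.83 and 90th percentiles of 20.1 and 13.9.

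Some of these genes moved together across members. Pairs were taken among the 30 genes ranked first by that ratio (435 pairs). Fos and Egr1 had a Pearson correlation of 0.73 in library 1 (56 cells) and 0.72 in library 2 (239 cells) on the natural log values. Fos and Junb had 0.73 and 0.69. Acta2 and Tagln had 0.71 and 0.77, and Tagln and the actin-binding gene Tmsb4x 0.63 and 0.53. Adamdec1 had -0.43 and -0.36 with Tagln and -0.27 and -0.34 with Acta2. Cells of 1 library are not replicates, and the points share library and depth. With each cell thinned to 2000 UMIs the values were 0.63 and 0.65 for Fos and Egr1, 0.30 and 0.58 for Acta2 and Tagln, -0.29 and -0.28 for Adamdec1 and Tagln and -0.10 and -0.26 for Adamdec1 and Acta2. The thinned values were 0.41 and 0.61 for Fos and Junb and 0.38 and 0.39 for Tagln and Tmsb4x.

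**Figure D5:**
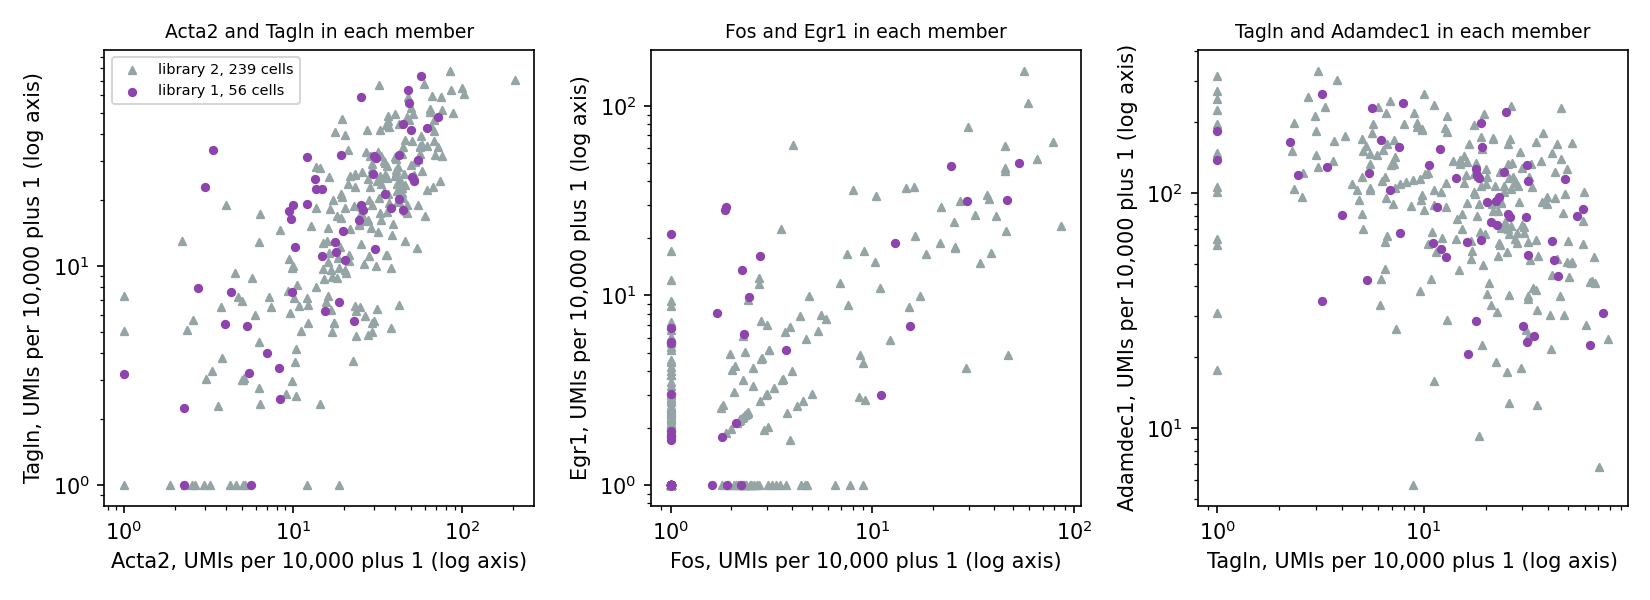
Each point is 1 member, purple circles for library 1 and grey triangles for library 2, plotted by UMIs per 10,000 plus 1 of the 2 genes named on the axes (log axes). Acta2 and Tagln rise together, as do Fos and Egr1, which are at or near 0 in many members, and Adamdec1 is lower where Tagln is high.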

How the data were processed

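Droplet (10X Chromium) libraries of sorted small intestinal stromal cells were read from the deposited table, whose natural log values the authors made by scaling each cell to 10,000 UMIs, adding 1 and taking the natural log; per the labels Cell Ranger 3.1.0 was used upstream. Values were turned back to UMIs with each cell's smallest step, and all values above 0 came out whole within 0.05. The table held 3891 genes, after 1 gene row that was cut short was left out. The 739 plate-based (Smart-seq2) columns were not used, because the rule is for 10X cells and the study merged both kinds of library by integration. No doublet caller was run, and an alternative drops the 5% deepest cells.

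The members, the lists and the comparisons were chosen with earlier results of these data known. For each library and group the mean natural log value per gene was taken, and limma 3.58.1 (R 4.3.3; mean trend, library as a block) tested the difference with Benjamini-Hochberg adjustment. Rule genes were left out, and genes had to be above 0 in at least 5% of cells of a group. The pairing of groups comes from the library, since both groups of a pair were cells of the same library. A named gene belongs to a fixed list or is among the 12 per direction (6 against Adamts18-positive cells) of largest difference among calls whose sign did not differ between libraries, and any other is given as a value only. Levels are mean UMIs per 10,000. Shares carry exact 95% intervals, and a count of 0 allows 3 counts. Alternatives changed the filter, trend, block, scale, depth (2000 UMIs per cell) and number of markers, and 1 was added after seeing the data. Promoters came from RefSeq (GRCm38.p6) and coordinates from the GENCODE annotation. Python 3.11.15 was used for the rest. Results for some genes are not reported here.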

Additional observations from a re-analysis of the deposited data

How the results depend on the processing

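For 109 named differences, 1007 of 1087 values under other settings with a test kept direction and call, 78 kept direction without passing and 2 reversed. With 1 library left, 212 of 218 kept their direction and 6 reversed. Of the reversals, the differences with either library left out ran from -0.0011 to 0.2100 for Anapc7, -0.0028 to 0.0811 for Hrh1, -0.0058 to 0.0931 for Myh14, -0.1072 to 0.0275 for Des and -0.0323 to 0.0378 for Id4 (against other cells) and -0.5138 to 0.1283 for Acta2 (against the Wif1 side), thinning gave Des 0.0007 and at least 2 markers gave Id4 -0.0076. With 1 library left there was no test, so only differences are given.

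Against other cells, 304 genes were higher and 565 lower of 3792 tested without the filter on low values. Thinning to 2000 UMIs gave 324 higher and 302 lower (626 in all of 1052 tested), beside 964 of 1679 in the main setting. Against the Wif1 side, dropping the mean trend gave 125 higher (336 in all), thinning gave 76 and 100 (176 in all of 937 tested), and at least 2 markers gave 136 higher. Against Adamts18-positive cells, dropping the trend gave 7 and 15 (22), log2 values gave 53 higher, thinning gave 5 and 6 (11 of 964 tested), and at least 4 markers gave 22 lower. Without the replicate block, which drops the pairing by library, the counts were 441 and 420 against other cells, 104 and 150 (254) against the Wif1 side, and 1 and 1 (2) against Adamts18-positive cells. Lifting the limit on Fbln1 and Mgp, chosen after seeing the data, gave 204 lower against the Wif1 side and 87 and 83 (170) against Adamts18-positive cells. The mean share of members was 1.93%, and became 1.46% with at least 4 markers, 0.81% after thinning and 4.06% without that limit; with either library alone it was 1.67% to 2.20%. The causes of these shifts were not tested.

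Depth limits genes near 1 UMI per cell, and the Adamts18-positive group of 13 cells in library 1 limits that comparison.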
